A study of Homo sapiens with 8 samples.

Results

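The integrated stress response genes described here are 35 genes chosen by symbol from the 16153 genes of the deposited table: ATF4, its partner and target transcription factors, and its targets in stress feedback, serine synthesis, amino acid supply and tRNA charging. All 35 were found in the table and all 35 passed the filter of at least 1 CPM (reads scaled to library size) in at least 2 libraries, as did 16103 genes in all. RNA was sequenced from HMEC-1, an established human microvascular endothelial cell line, grown on gelatin-coated plastic coverslips in automated culture units. The 3 space_microg libraries came from cells held in weightlessness on the space station, the 2 space_1g libraries from cells that shared this incubator and sat in its centrifuge at 1 g, and the 3 ground libraries from cells kept in a matching facility in the home laboratory. Every library comes from this 1 line, which is immortalised with the SV40 large T antigen, in a serum medium with hydrocortisone and EGF at 37 °C, shared by all groups. The labels, whose protocol text is the same for all 8 samples, say that flown samples were fixed in orbit and later kept at 6 °C until processed; they do not describe the storage of the ground samples separately. Space_1g differs from ground by everything that flight and the centrifuge bring together, and space_microg differs from space_1g by weight and by the centrifuge. The labels do not state whether replicates were grown as separate cultures; p-values therefore measure the spread between these libraries, which may be technical.

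The integrated stress response is the shared answer of cells to amino acid shortage, unfolded protein, double-stranded RNA and lack of haem. Each of these activates a kinase that phosphorylates the initiation factor eIF2, which slows most protein synthesis while the mRNA of ATF4 is translated more. ATF4 then pairs with C/EBP proteins on a composite DNA element and switches on genes that make, import and charge amino acids, together with genes that end the response or, if stress lasts, harm the cell. In endothelial cells the pathway is known for its part in amino acid supply and in the answer to oxidised lipids.

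The composite element was searched for in the promoters of the genes, and some of its matches are shown here because it is the element ATF4 is known to bind; most of the promoters searched did not hold it. RefSeq promoter windows of 250 bases before to 50 bases after a transcription start (GRCh38.p14) were found for 30 of the 35 genes; NUPR1, PSPH, SHMT2, ALDH1L2 and SLC7A11 had no entry in that table. The letters TGATGNAA, on either strand, occurred in 11 of these 30 genes (36.7%), against 1217 of 27305 genes with a window (4.46%). The genes were ATF3, CEBPG, JDP2, CHAC1, ASNS, AARS, CARS, GARS, MARS, NARS and TARS, so 6 of the 11 charge tRNA. The cyclic AMP response element TGACGTCA was in 1 of the 30 (PPP1R15A) and in 2.25% of all genes, and the full endoplasmic reticulum stress element (ERSE-I), searched on both strands too, was in 0 of the 30 and in 0.0916% of all genes. No stretch of 8 bases can match both TGATGNAA and TGACGTCA. A match is a description of these letters, not proof of a working site, and its absence says only that they are not in this window. The 6 genes with the highest mean level among those whose match lies wholly before a start are given below, 30 bases each along the strand of the gene, with the match in capitals; TTGCATCA and TTTCATCA are the element read on the opposite strand.
AARS, chr16:70289675-70289704, minus strand: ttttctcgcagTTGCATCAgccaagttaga
GARS, chr7:30594834-30594863, plus strand: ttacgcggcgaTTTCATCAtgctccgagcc
ASNS, chr7:97872458-97872487, minus strand: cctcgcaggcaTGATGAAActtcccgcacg
CEBPG, chr19:33374060-33374089, plus strand: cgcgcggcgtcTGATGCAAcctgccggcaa
ATF3, chr1:212565205-212565234, plus strand: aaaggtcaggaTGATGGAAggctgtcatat
JDP2, chr14:75427995-75428024, plus strand: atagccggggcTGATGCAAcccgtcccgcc
The AARS match starts 187 bases before the RefSeq start and lies in an annotated exon of the neighbouring gene DDX19B. In GENCODE v29 the matches of ASNS and GARS lie in annotated exons of the genes themselves, and those of CEBPG, ATF3 and JDP2 in no annotated exon.

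Libraries held 24248964 to 35388757 reads in the listed genes, so that 3 reads, the limit that a count of 0 allows, were 0.0855 to 0.12 CPM; this covers counting error only. The first principal component of all genes, with 61.8% of the variance, did not follow the groups. It set space_1g replicate 1 (score 60.7) and ground replicate 3 (64.7) apart from the other 6, which lay between -31.2 and 1.51. The score of 1.51 belongs to space_microg replicate 1, and the next highest was -20.7, in ground replicate 1. Deviations from the genes' means were taken on the log2 scale. Their median over 23 interferon-induced genes was 2.03 and 2.19 in space_1g replicate 1 and ground replicate 3, against -1.50 to 0.63 elsewhere. For 25 p53 targets it was 1.12 and 0.83, against -0.66 to 0.12, and for 22 genes of mitosis -0.96 and -0.68, against 0.12 to 0.38. The part of these programmes in the results that follow was not tested. All 15 endothelial markers were measured, with CDH5 at 268 to 579 CPM and PECAM1 at 201 to 367 CPM; their summed level was 1522 to 2385 CPM in space_microg, 1729 to 2007 in space_1g and 2387 to 2691 on the ground. Of 10 fibroblast and smooth muscle markers 5 were in the table, led by COL1A1, with a summed level of 149.8 to 292 CPM in space_microg, 125 to 303 in space_1g and 178 to 214 on the ground. Of 8 epithelial markers only the keratins KRT8 and KRT18 were, with a summed level of 263 to 368, 265 to 281 and 254 to 364 CPM, and of 8 leukocyte markers only CD14, with 1.93 to 2.88, 1.04 to 2.34 and 1.04 to 1.87 CPM. The others, with EPCAM, CDH1 and PTPRC among them, were not analysed here. In RNA from a whole culture, fewer cells with a high level and less RNA per cell cannot be told apart.

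The stress response genes sorted the libraries, not the groups. In ground replicate 3 all 35 genes lay above their own mean over the 8 libraries, with a median deviation of 1.01 on the log2 scale, and in space_1g replicate 1 33 of 35 did, with a median of 0.69. Ground replicates 1 and 2 were at the other end, with 0 and 1 of 35 above the mean and medians of -0.46 and -0.65. Space_microg replicates 1 to 3 (0.071, -0.12 and -0.39) and space_1g replicate 2 (-0.17) lay in between. For all listed genes the same medians were -0.0045 to 0.0086. For 32 of 35 stress response genes (91.4%) the values of space_1g replicate 1 and ground replicate 3 both exceeded each of the other 6 libraries, a pattern held by 23.6% of all genes past the filter; 21.5% of all genes, and 0 of the 35, had both below the other 6. The exceptions were SLC7A11, CTH and NARS. The highest value was in ground replicate 3 for 30 genes and in space_1g replicate 1 for 5, and the lowest was in ground replicate 2 for 21 and ground replicate 1 for 7. So the ground group holds both the highest and the lowest libraries, as the map of deviations by gene and library shows.

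**Figure D1:**
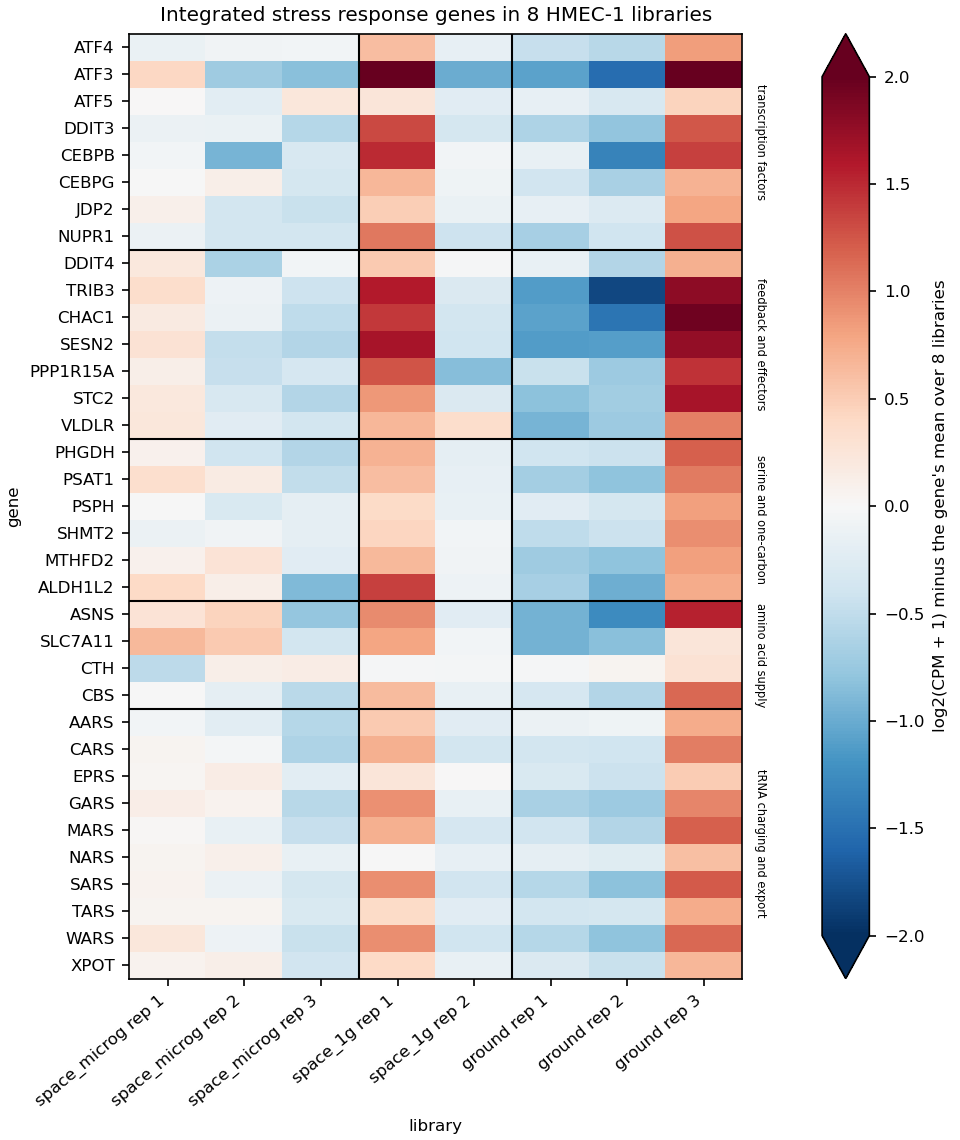
Each row is a gene and each column a library; colour is log2(CPM + 1) minus the gene's mean over the 8 libraries, capped at -2 and 2, with genes ordered by role. The columns of ground replicate 3, with all 35 genes above their mean, and space_1g replicate 1, with 33, are red, and those of ground replicates 1 and 2 are mostly blue.

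Among the transcription factors, ATF4, the hub of the pathway (chromosome 22, 39519695 to 39522685, GRCh38), had 389, 405 and 411 CPM in space_microg replicates 1 to 3. It had 655 and 382 CPM in space_1g replicates 1 and 2, and 311, 289 and 762 CPM in ground replicates 1 to 3. The 3 weightless values lie close together and inside the span of the ground group. Since ATF4 is set mainly by translation, its mRNA is only part of its activity. Per kilobase of exon ATF4 was the most abundant of the 35, at 179 CPM per kb on average over the 8 libraries, before AARS (97.5), SARS (85.9) and DDIT4 (83.7); exon lengths are the union over all GENCODE v29 transcripts and overstate the length of genes with many variants.

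ATF3, an inducible factor of the same family that also answers DNA damage, had the widest span of the 35, 17.6-fold between its highest and lowest library. Its levels were 112 CPM in space_1g replicate 1 and 104 CPM in ground replicate 3, against 27.1, 11.9 and 10.8 CPM in space_microg, 9.59 CPM in space_1g replicate 2 and 9.10 and 6.37 CPM in ground replicates 1 and 2. DDIT3, also called CHOP, which promotes death when stress lasts, had 138 and 42.5 CPM in space_1g, 35.1, 31.2 and 131 CPM on the ground and 50.3, 49.6 and 36.6 CPM in weightlessness. CEBPB, a C/EBP partner of ATF4, was low: 26.8 and 8.53 CPM in space_1g, 7.90, 2.91 and 24.5 on the ground, and 8.52, 4.17 and 6.88 in space_microg. For each of these genes the high libraries are space_1g replicate 1 and ground replicate 3. CEBPG, another partner, spanned 60.0 to 154 CPM and NUPR1, a small chromatin protein of stressed cells, 16.3 to 64.8 CPM. JDP2, a repressor that binds AP-1 sites, spanned 24.96 to 60.2 CPM, and ATF5, translated like ATF4 under stress, only 7.85 to 14.1 CPM. DDIT3 shares 39.6% of its exon bases with other genes, mostly with MARS on the opposite strand, and ATF5 23.7% and CEBPB 11.8%; the kit keeps strand, but the strand setting of the counting was not given in the sources used here, so part of their reads may belong to those neighbours.

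The feedback and effector genes spread most, with a median of 5.73-fold between the highest and the lowest library over the 7 genes, against 3.45-fold over the 35 and 2.04-fold over all genes past the filter. TRIB3, a pseudokinase that restrains ATF4, had 364 CPM in ground replicate 3 and 48.0 and 28.97 CPM in the other ground libraries, a span of 12.5-fold. Its flight values lay between, at 134, 98.0 and 78.7 CPM in space_microg and 317 and 85.8 CPM in space_1g. CHAC1, which breaks down glutathione, had 8.78, 6.45 and 78.4 CPM on the ground, 22.2, 17.9 and 13.5 CPM in space_microg and 53.6 and 15.0 CPM in space_1g. SESN2, an inhibitor of mTORC1 that p53 also induces, had 27.8, 28.1 and 210.3 CPM on the ground, 75.5, 44.2 and 40.6 CPM in space_microg and 196 and 46.6 CPM in space_1g. In these 3 genes, ground replicates 1 and 2 were below every flight library. PPP1R15A, or GADD34, the subunit that takes the phosphate off eIF2, differed: its lowest value was 90.2 CPM in space_1g replicate 2, beside 393 CPM in space_1g replicate 1. It had 178, 119 and 130.3 CPM in space_microg and 119.9, 98.5 and 448 CPM on the ground. DDIT4, an mTORC1 inhibitor, spanned 106 to 269 CPM, with 41.2% of its exon bases shared with an antisense gene. STC2, a secreted glycoprotein, spanned 30.6 to 175 CPM, and VLDLR, a lipoprotein receptor, 7.43 to 31.3 CPM.

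**Figure D2:**
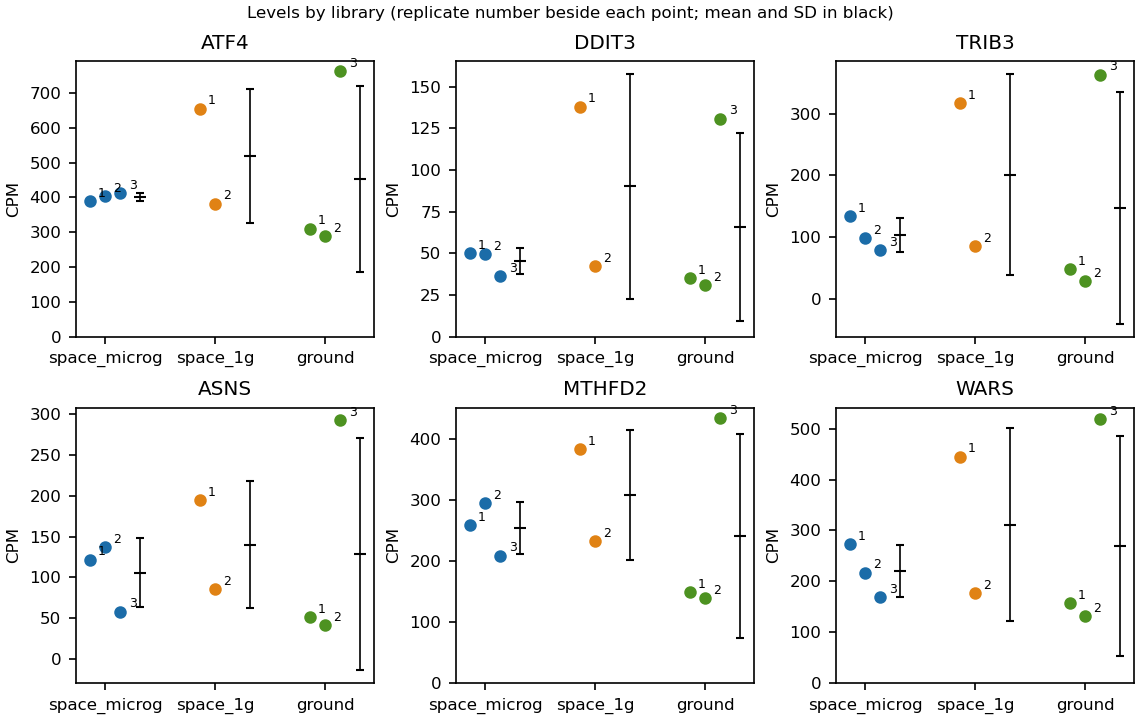
Levels in CPM (vertical axes, linear) of 6 genes in each library; points carry the replicate number, and the black mark and bar beside them are the mean and SD of the group. In every panel ground replicate 3 and space_1g replicate 1 lie above the other 6 libraries, and the SD of the ground group is close to or above its mean for TRIB3 (147 ± 188) and ASNS (129 ± 142).

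In all 6 genes of serine and one-carbon metabolism space_1g replicate 1 and ground replicate 3 were again above the other 6 libraries, but in PHGDH, PSPH and ALDH1L2 the other flight libraries overlapped ground replicates 1 and 2. MTHFD2, a mitochondrial folate enzyme, had 259, 295 and 209 CPM in space_microg, 384 and 232 CPM in space_1g and 149, 139 and 434 CPM on the ground. PHGDH, the first enzyme of serine synthesis, had 98.7, 96.7 and 299 CPM on the ground, 138, 98.1 and 86.4 CPM in space_microg and 211 and 115 CPM in space_1g. The weightless libraries overlap ground replicates 1 and 2 in PHGDH and lie above them in MTHFD2. The next enzymes of serine synthesis, PSAT1 and PSPH, spanned 90.5 to 327 CPM and 24.7 to 56.5 CPM, and SHMT2, which moves a carbon from serine to folate in mitochondria, 158 to 429 CPM. ALDH1L2, a mitochondrial folate dehydrogenase, was highest in space_1g replicate 1 (30.9 CPM), with 10.5 CPM in space_1g replicate 2, 15.2, 12.3 and 5.67 CPM in space_microg and 6.81, 5.30 and 19.7 CPM on the ground. MTHFD2 shares 33.2% of its exon bases with antisense genes.

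Of the genes of amino acid supply, ASNS, asparagine synthetase, had 51.4, 41.2 and 293 CPM on the ground, 122, 138 and 58.1 CPM in space_microg and 195 and 85.5 CPM in space_1g; 44.6% of its exon bases lie in an overlapping gene on the same strand. SLC7A11, the cystine importer that feeds glutathione synthesis (chromosome 4, 138164097 to 138242349), was an exception to the common order. It had 245, 224 and 120.0 CPM in space_microg, 268 and 149 CPM in space_1g and 80.5, 86.2 and 183 CPM on the ground, so that ground replicate 3 lay below 3 of the 5 flight libraries. CTH and CBS, the transsulfuration enzymes that make cysteine from homocysteine, were the lowest of the 35. CTH had 1.08 to 2.67 CPM, from 38 to 87 reads a library, and showed no common order with the others. CBS had 2.71 to 11.3 CPM, highest in ground replicate 3, but its near-identical copy CBSL had 2.27 to 9.19 CPM, and reads that could be split between them leave its level uncertain.

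The tRNA charging genes were abundant and moved less, with a median span of 2.82-fold over the 10. AARS, the alanyl-tRNA synthetase, had 386, 398 and 705 CPM on the ground, 407, 363 and 284 CPM in space_microg and 605 and 359.9 CPM in space_1g. SARS, the seryl-tRNA synthetase, spanned 4.15-fold, the most of this group, with 196, 166 and 687 CPM on the ground, 307, 269 and 229 CPM in space_microg and 558 and 225 CPM in space_1g. WARS, the tryptophanyl enzyme, which interferon also induces, had 157, 132 and 518 CPM on the ground, 273, 217 and 169.6 CPM in space_microg and 445 and 177 CPM in space_1g. NARS, the asparaginyl enzyme, spanned 1.78-fold, the least of the 35: ground replicate 3 had 369 CPM, while space_1g replicate 1 (244 CPM) lay below space_microg replicates 1 and 2 (253 and 262 CPM). Of the others, the glycyl, methionyl and cysteinyl enzymes GARS, MARS and CARS spanned 147 to 479, 159.5 to 549.8 and 67.4 to 213 CPM. The threonyl and glutamyl-prolyl enzymes TARS and EPRS spanned 166 to 358 and 241 to 459.9 CPM, and XPOT, which exports tRNA from the nucleus, 241 to 521 CPM.

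Other genes of the pathway were read in the same way. The median deviations in space_1g replicate 1 and ground replicate 3 were 0.61 and 0.86 for the 10 tRNA charging genes of the list. They were 0.093 and 0.37 for the other 11 cytosolic tRNA synthetases, and 0.0060 and 0.13 for 17 mitochondrial ones. For 33 other ATF4 targets they were 0.52 and 0.57. For 16 other one-carbon enzymes they were 0.044 and 0.11, for 20 genes of the XBP1 and ATF6 branches of the unfolded protein response -0.090 and 0.26, and for 24 genes of the eIF2 kinases, eIF2, its exchange factor and phosphatase -0.017 and 0.12. For the other ATF4 targets the remaining 6 libraries had -0.32 to 0.056, below both. For the other cytosolic synthetases they had -0.23 to 0.048, also below both. Within that list IARS had 892 and 1157 CPM in space_1g replicate 1 and ground replicate 3, against 348 to 562 CPM elsewhere. YARS had 281 and 346 CPM, against 108 to 183 CPM. QARS went the other way, with 115 and 126 CPM, against 126 to 198 CPM. For the mitochondrial synthetases, other one-carbon enzymes and XBP1 and ATF6 genes, the remaining 6 reached 0.031, 0.095 and 0.12. In these lists only the median of ground replicate 3 lay above them. Single genes of the XBP1 and ATF6 branches differed from their median. XBP1 had 255 and 292 CPM in space_1g replicate 1 and ground replicate 3, against 80.9 to 134 CPM elsewhere. ERN1 had 65.9 and 66.6 CPM, against at most 29.6 CPM, and HYOU1 240 and 383 CPM, against 164 to 215 CPM. HSP90B1, PDIA4 and PDIA6 were instead lowest in space_1g replicate 1, at 441, 135 and 183 CPM. For the eIF2 machinery the remaining 6 libraries had -0.085 to 0.12, a span that holds both values. Single genes of this list went both ways. The eIF2 kinase EIF2AK4 had 181 and 193 CPM in space_1g replicate 1 and ground replicate 3, against 135 to 146 CPM elsewhere. EIF2AK2, another, had 315 and 274 CPM, against 145 to 247 CPM. The kinase EIF2AK1 was lower, with 86.5 and 85.6 CPM, against at least 101 CPM. PPP1CB was lower too, with 145 and 133 CPM, against 226 to 307 CPM. Whether the lists differ from one another was not tested.

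**Figure D3:**
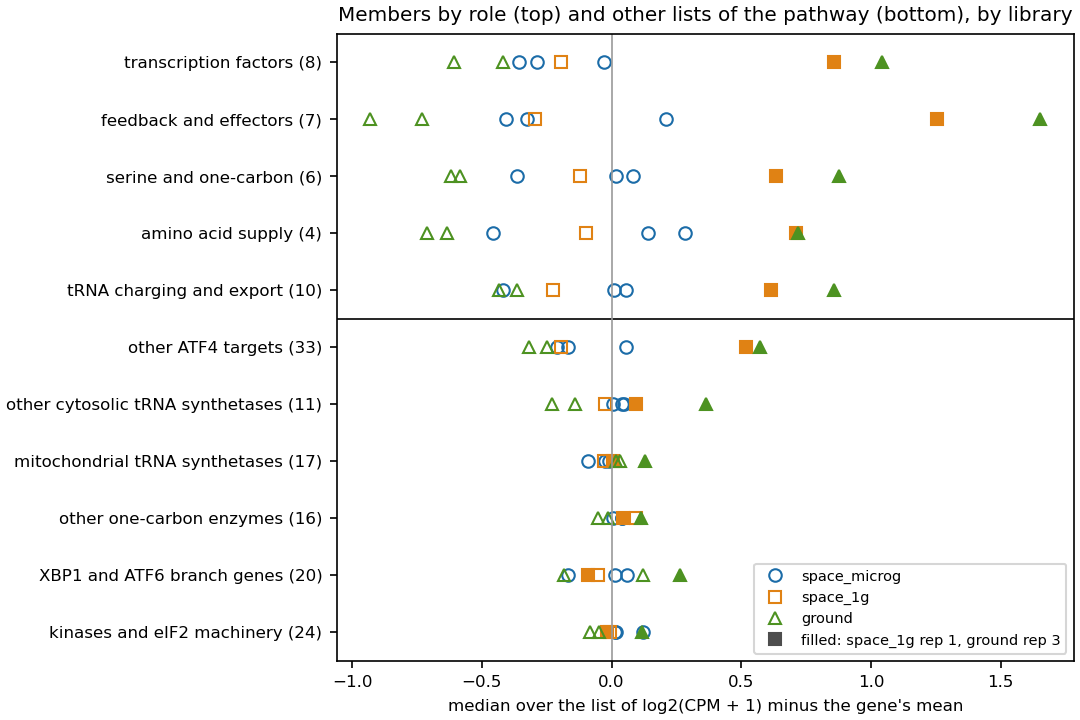
Horizontal axis: median over a list of log2(CPM + 1) minus each gene's mean over the 8 libraries; symbols are libraries, filled for space_1g replicate 1 and ground replicate 3, and the number of genes stands beside each list. The filled symbols lie at 0.61 or above in all 5 roles of the stress response genes and between -0.090 and 0.37 in the last 5 lists.

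The first comparison, of weightless flight with the ground, asks about spaceflight as a whole. With all 8 libraries the stress response genes did not separate the groups: 12 of 35 had a higher fitted mean in space_microg (47% of all genes did) and 23 a lower one (53%), with a median difference of -0.080 on the log2(CPM + 1) scale, against -0.022 over all 16103 genes. By limma with Benjamini-Hochberg adjustment 0 of 35 passed the threshold of 0.05, as did 0 of all genes (0% called). An unadjusted p under 0.05 was reached by 0 of the 35, against 696 of all genes (4.32%). EdgeR on the recovered reads also called 0 of the 35, with 0 at an unadjusted p under 0.05. DESeq2 gave a p-value for 33 of the 35 and called 0 of these, with 0 at an unadjusted p under 0.05. In 0 of 35 genes were the groups free of overlap, where 7.88% of all genes were higher and 6.53% lower in space_microg without overlap, 14.4% in all. The 4 genes with the smallest p were SLC7A11, AARS, JDP2 and PHGDH. SLC7A11 had 196 ± 66.8 CPM (SD, n = 3) in space_microg and 117 ± 57.7 (n = 3) on the ground, a difference of 0.78 ± 0.39 (SE, limma adjusted p = 0.866; 0.255 to 0.999 over the alternatives). AARS had 351 ± 62.1 and 497 ± 181 CPM, a difference of -0.46 ± 0.29, JDP2 29.3 ± 6.41 and 39.6 ± 17.9 CPM (-0.35 ± 0.32) and PHGDH 107 ± 27.0 and 165 ± 117 CPM (-0.43 ± 0.44); limma adjusted p was 0.866, 0.866 and 0.881. Without ground replicate 3 the differences were 1.16 for SLC7A11, -0.17 for AARS, -0.016 for JDP2 and 0.11 for PHGDH; without ground replicate 2 those of JDP2 and PHGDH were -0.55 and -0.70, and without ground replicate 1 that of PHGDH was -0.69. Of the other lists of the pathway, 0 genes passed in limma in any; unadjusted p was under 0.05 for 2 of 24 genes of the eIF2 machinery, 1 of 33 other ATF4 targets, 2 of 17 mitochondrial synthetases and 1 of 20 genes of the XBP1 and ATF6 branches.

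Without space_1g replicate 1 and ground replicate 3 the direction turned. Ground replicate 3 held the highest value of 30 of the 35 genes, so leaving it out must lower their ground mean. That upward shift was fixed in advance, and the unadjusted p-values below carry this choice. Space_microg replicate 1, nearest to the libraries left out on the first component, was kept. It had 25 of the 35 genes above their mean, against 12 and 2 in space_microg replicates 2 and 3. It also had 23 of 23 interferon-induced genes above their mean, against 0 in each of space_microg replicates 2 and 3. For the 25 p53 targets the count was 24, against 4 and 10. Of the 35 genes 32 then had a higher fitted mean in space_microg (49.2% of all genes), with a median of 0.37 against -0.0052 over 15571 genes. None passed limma's adjusted threshold (0% of all genes; the smallest adjusted p among the 35 was 0.187), while 18 of 35 had an unadjusted p under 0.05, all higher, where 12.8% of all genes did in either direction and 5.83% in that one. All 3 weightless libraries lay above both remaining ground libraries in 21 of 35 genes, against 16.8% of all genes, and below both in 0 of 35, against 16.7%. TRIB3 had 104 CPM against 38.5 CPM, a difference of 1.41 ± 0.25, SLC7A11 196 against 83.3 CPM (1.16 ± 0.26), CHAC1 17.9 against 7.61 CPM (1.12 ± 0.24), ASNS 106 against 46.3 CPM (1.09 ± 0.31) and MTHFD2 254 against 144 CPM (0.80 ± 0.16). ATF4 itself had 402 against 299.7 CPM (0.42 ± 0.13). These genes were named after their values were seen. With ground replicate 3 alone left out the differences were the same (median 0.37, 32 of 35 higher). Space_1g replicate 1 is in neither group and enters only the filter and the spread of the fit. With it kept and ground replicate 3 left out, 7 of 35 had an unadjusted p under 0.05 in limma, all higher. Among all 15845 genes of that fit 1044 did in either direction and 376 in that one. The smallest limma adjusted p among the 35 was then 0.723. With both libraries left out, the 25 p53 targets had a median of 0.69, with 25 of 25 higher, the 23 interferon-induced genes 0.78, the 15 endothelial markers -0.43 and mitosis -0.046. Their part in the result was not tested.

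The second comparison, of space_1g with ground, asks about flight with weight restored. Of the 35 genes 32 had a higher fitted mean in space_1g (51.2% of all genes) and 3 a lower one (48.8%; CTH, AARS and NARS), with a median of 0.26 (0.0061 over all genes), and 0 passed in limma, 0 in edgeR and 0 in DESeq2 (limma called 0% of all genes). At an unadjusted p under 0.05 limma and edgeR each had 0 of the 35, where limma had 1.55% of all genes. DESeq2 had 0 of the 33 for which it gave a p-value. The groups did not overlap in 1 gene, CTH, lower in space_1g; among all genes 5.73% were lower and 4.94% higher without overlap, 10.7% in all. The feedback genes had the highest median, 0.72, the transcription factors 0.35, amino acid supply 0.38, serine and one-carbon genes 0.29 and tRNA charging 0.13. The smallest p belonged to SLC7A11, with 209 ± 84.5 CPM (SD, n = 2) against 117 ± 57.7 (n = 3), a difference of 0.88 ± 0.44 (limma adjusted p = 1.00). It was followed by ALDH1L2 (20.7 ± 14.5 against 10.6 ± 7.94 CPM, 0.93 ± 0.63), VLDLR (21.9 ± 3.54 against 15.8 ± 13.4 CPM, 0.72 ± 0.52) and MTHFD2 (308 ± 107 against 241 ± 167 CPM, 0.52 ± 0.47), each with a limma adjusted p of 1.00. With single libraries left out, SLC7A11 ranged from 0.45 (space_1g replicate 1 left out) to 1.30 (space_1g replicate 2), ALDH1L2 from 0.19 (space_1g replicate 1) to 1.67 (space_1g replicate 2), VLDLR from 0.36 (ground replicate 1) to 1.33 (ground replicate 3) and MTHFD2 from 0.16 (space_1g replicate 1) to 1.05 (ground replicate 3). For the 35 genes together, edgeR and DESeq2 gave medians of 0.16 and 0.14. Leaving out space_1g replicate 1 turned the median to -0.22, and leaving out ground replicate 2 to -0.023. Leaving out ground replicate 1 gave 0.088, while the loss of space_1g replicate 2 gave 0.78 and that of ground replicate 3 gave 0.80.

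Without both libraries that stand apart, space_1g is 1 library, assumed to vary like the other groups. Its values gave a median of 0.34 over the 35 genes, with 32 higher (51.3% of all genes), 0 past limma's adjusted threshold (0% of all genes) and 6 at an unadjusted p under 0.05, all higher, where 5.3% of all genes did in either direction and 1.92% in that one. It lay above both remaining ground libraries in 29 of 35 genes (38.6% of all genes) and below both in 3 (36.8%). VLDLR had 19.4 CPM against 8.08 CPM on the ground (1.17 ± 0.31) and TRIB3 85.8 against 38.5 CPM (1.18 ± 0.34), while PPP1R15A had 90.2 against 109 CPM (-0.27 ± 0.25). Both flight groups are set against the same ground libraries here, so their likeness is no independent sign. Counted by library, the 4 flight libraries lay above both ground libraries in 20 of the 35 genes (57.1%), and in 14.4% of all genes past the filter; the reverse held in 0 of the 35 and in 14.3% of all. The 20 include ATF4, ATF3, DDIT3, CEBPG, TRIB3, CHAC1, SESN2, ASNS and SLC7A11, and leave out AARS, PHGDH, PPP1R15A and DDIT4. This count was added after the values were seen.

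**Figure D4:**
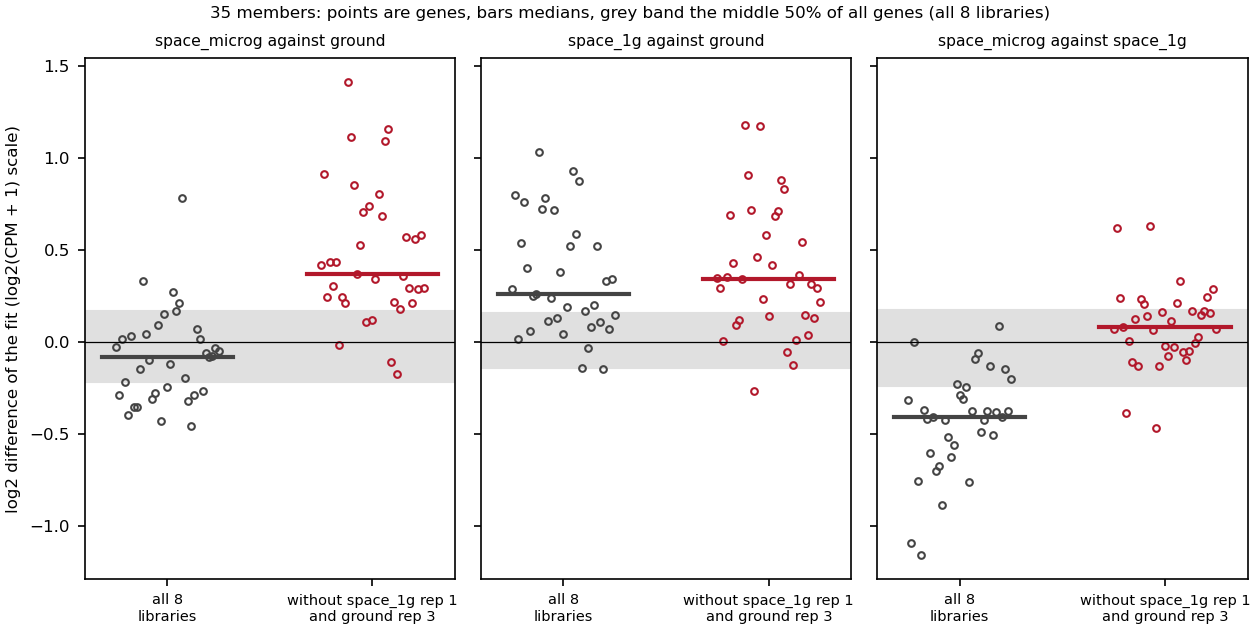
Vertical axis: log2 difference of the fit for each of the 35 genes (points), their median (bars) and the middle 50% of all genes (grey band, all 8 libraries), in 3 comparisons with and without space_1g replicate 1 and ground replicate 3. The medians go from -0.080 to 0.37, from 0.26 to 0.34 and from -0.41 to 0.081.

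The third comparison, of space_microg with space_1g, asks about weight among cells that flew. Of the 35 genes 34 had a lower fitted mean in weightlessness (53.4% of all genes) and 1, NARS, a higher one (46.6%). The median was -0.41 (-0.025 over all genes). In limma and edgeR 0 of the 35 passed, and in DESeq2 0 of the 33 with a p-value (limma called 0% of all genes). An unadjusted p under 0.05 was reached by 0 of them in each tool, where limma had 1.32% of all genes. CEBPB, VLDLR and SHMT2 were lower without overlap, 3 of 35, against 6.91% of all genes, and 0 of 35 were higher without overlap, against 7.24% (14.2% of all genes in either direction). CEBPB had 6.52 ± 2.19 CPM (SD, n = 3) in space_microg and 17.7 ± 12.9 (n = 2) in space_1g, a difference of -1.16 ± 0.74. AARS differed by -0.42 ± 0.33, ALDH1L2 by -0.76 ± 0.63 and VLDLR by -0.63 ± 0.52. For all 4 limma's adjusted p was 0.912. Without space_1g replicate 1 the differences of CEBPB, AARS and ALDH1L2 were -0.39, -0.052 and -0.025, and without space_1g replicate 2 they were -1.93, -0.80 and -1.50. The direction rests on 1 library: without space_1g replicate 1 the median was 0.081, with 23 of 35 higher in space_microg, and without space_1g replicate 2 it was -0.88. Beside the remaining space_1g library the smallest differences were those of CEBPG, with 90.6 against 89.3 CPM (0.0061 ± 0.22), and EPRS, with 325 against 325 CPM (-0.0063 ± 0.19). PPP1R15A, at 143 against 90.2 CPM (0.63 ± 0.24), was the 1 gene of the 35 with an unadjusted p under 0.05 there, where 0.867% of all genes had one in either direction and 0.411% in this one. With both libraries left out 23 of 35 were higher (48.9% of all genes), 7 without overlap (16.6%), and 3 were lower without overlap (16.7%).

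**Figure D5:**
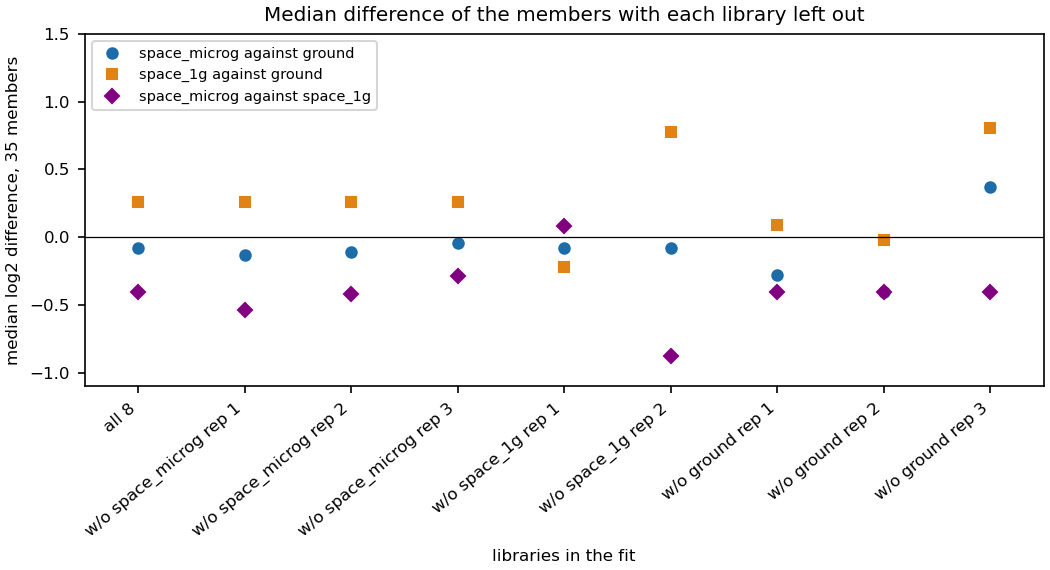
Vertical axis: median log2 difference of the 35 genes in each comparison; horizontal axis: all 8 libraries, or each library left out in turn. The median of space_microg against ground crosses 0 only without ground replicate 3 (0.37), that of space_microg against space_1g only without space_1g replicate 1 (0.081). That of space_1g against ground does so when space_1g replicate 1 (-0.22) or ground replicate 2 (-0.023) is left out.

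Of the genes of the pathway outside the list, 0 passed in limma in space_1g against ground or in space_microg against space_1g. Of 33 other ATF4 targets 21 were higher, with a median of 0.13, and MAP1LC3B, an autophagy protein, had the smallest p, with 150 and 82.0 CPM in space_1g and 71.5, 67.5 and 83.8 CPM on the ground (0.58 ± 0.24, limma adjusted p = 1.00). Of the 24 genes of the eIF2 machinery 14 were higher and 10 lower (median 0.029). Both genes named here had a lower mean in space_1g. EIF2AK3, or PERK, the eIF2 kinase of the endoplasmic reticulum, had 36.1 and 43.5 CPM in space_1g and 51.4, 49.5 and 42.4 CPM on the ground. OMA1, the mitochondrial protease that signals to the haem-regulated eIF2 kinase, had 7.44 and 14.7 CPM against 17.2, 16.3 and 12.9 CPM. Of the 20 genes of the XBP1 and ATF6 branches 12 were lower (median -0.083), among them the disulfide isomerase PDIA4, with 135 and 191 CPM against 255, 175 and 239.97 CPM. EDEM1, which clears misfolded proteins, had 217 and 186 CPM against 144, 161 and 178 CPM, the 1 gene of these 20 that was higher without overlap. The chaperone CALR, named after its values were seen, had 594 and 601 CPM against 896, 605 and 1011 CPM, the 1 of the 20 that was lower without overlap. Among all genes 4.94% were higher and 5.73% lower in this way, so 1 of 20 each way is near the share of all genes. The other cytosolic synthetases had a median of 0.079, the mitochondrial ones -0.069 and the other one-carbon enzymes 0.010, with TYMS, thymidylate synthase, at 151 and 149.8 CPM against 121, 138 and 117 CPM, 1 of 2 genes of its list that were higher without overlap. Without space_1g replicate 1 and ground replicate 3, the other cytosolic synthetases were higher than on the ground in 10 of 11 genes in space_microg (median 0.19) and in 10 of 11 in space_1g (median 0.20). The other ATF4 targets were higher in 24 of 32 (median 0.20) and 20 of 32 (median 0.096), and limma called 0 genes of either list there; both flight groups share the ground libraries.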

How the data were processed

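Stranded total-RNA libraries depleted of ribosomal RNA were sequenced from 8 HMEC-1 samples, per the labels' protocols. The submitters' processing notes list STAR 2.5.3, edgeR, featureCounts, CASAVA 1.8.2 and FastQC, and the builds GRCh38 and hg38, but no order or settings. The authors deposited 1 normalised signal for each gene and library, which the labels call CPM; columns sum to 966156 to 1061177, and the factors in them match edgeR's TMM factors to within 1e-04. All values (100% in each library, within 1e-06 read) were whole multiples of 1 read, and these recovered reads (24248964 to 35388757 a library) went into edgeR 4.0.16 and DESeq2 1.42.0 as alternatives. The test was limma 3.58.1 in R 4.3.3 on log2(CPM + 1), with a mean trend, all 8 libraries in 1 fit, two-sided, adjusted over 16103 genes with at least 1 CPM in 2 libraries (50 left out); fold changes on this scale understate those of low genes. It had been planned for plain CPM. The steps were tested on simulated data with 1 common spread and no library set apart. These data differ in that, so the simulation does not show what differences the steps could find here. The genes, lists and tests were chosen with earlier results of these data known. By rule, all 35 genes are described by level, the 4 with the smallest p in a comparison by their difference, and up to 3 genes of each other list, of which not all are named. Further genes of the eIF2 machinery and of the XBP1 and ATF6 branches were named after their values were seen. Alternatives were pseudocounts of 0.25 and 4, no filter or 5 CPM, median-of-ratios scaling, only the 2 groups compared, the replicate number as a block, each library left out, and both libraries that stand apart left out. Exon lengths and positions are from GENCODE v29 (GRCh38); promoters are RefSeq's (GRCh38.p14), matched by symbol or synonym.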

Additional observations from a re-analysis of the deposited data

How the results depend on the processing

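Over all alternatives limma called 0 of the 35 genes in each comparison, and 0 of all genes, as did edgeR; DESeq2 called 3 of all genes in space_microg against ground (ADCY4, FBLN5 and RBM3, none in the list). With each library left out, the median of the 35 ranged from -0.40 to 0.37 for space_microg against ground, from -0.22 to 0.80 for space_1g against ground and from -0.88 to 0.081 for space_microg against space_1g; the pooled SD between libraries of a group was 0.65. PHGDH in space_microg against ground turned to 0.11 without ground replicate 3, whether or not space_1g replicate 1 was left out too. It ranged from -0.70 to 0.11 with single libraries left out, and the cause was not tested. EdgeR and DESeq2 gave medians of -0.25 and -0.30 for space_microg against ground (limma -0.080), 0.16 and 0.14 for space_1g against ground (limma 0.26) and -0.44 and -0.45 for space_microg against space_1g (limma -0.41). With the replicate block the medians were -0.080, 0.53 and -0.60, and 0, 0 and 0 of the 35 were called. Same-numbered deviations from the group means correlated at -0.397, 0.556 and 0.0505 for space_microg and ground. They correlated at 0.679 and 0.205 for space_microg and space_1g, and at -0.678 and 0.601 for space_1g and ground. Samples did not all correlate best with their own number. Deviations of the 2 space_1g libraries mirror each other, so these values cannot show whether the numbers pair the samples. Groups of 3 and 2 libraries are too few for an outlier check. Counting error weighs most on CTH, with 38 to 87 reads a library, and CBS, with 68 to 369.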
